A study of Rattus norvegicus with 22 samples.

Results

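*Emp1*, *Emp3* and *Plp2* encode small membrane proteins that cross the membrane with 4 helices, and they were followed here through the cortex of rats with a penetrating ballistic brain injury (PBBI) and of sham rats. The 3 genes were picked by name, out of 32545 gene identifiers, because their RNA was raised in the injured hemisphere of these same samples. Their values in ipsilateral PBBI cortex are therefore given as a description without a p-value, and the 3 genes were tested only in the contralateral hemisphere and in the sham rats. The ipsilateral sham samples were the other side of that choice, so the test within sham rats is not independent of it. The files carry identifiers alone, and the 3 symbols were paired with them through a supplementary gene list of the study: *Emp1* is ENSRNOG00000008676 (2805 bases of annotated exon length), *Emp3* is ENSRNOG00000021104 (729 bases) and *Plp2* is ENSRNOG00000039496 (1067 bases).

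Cortical RNA came from both hemispheres of 11 adult male rats (labelled Sprague-Daley), 6 with PBBI and 5 with sham surgery, which gave 22 samples in 4 groups. In PBBI rats a probe was driven through a craniectomy over the right frontal pole and a balloon at its tip was briefly inflated, and the right hemisphere is called ipsilateral. Sham rats went through the same steps, craniectomy included, except that no probe entered the brain, and all rats of both groups carried implanted EEG and EMG electrodes. Tissue was taken 24 h after the procedure, and total counts per sample lay between 42085341 and 63412426. The tissue is a mixture of cell types, so that more cells of a type and more RNA per cell cannot be told apart in any value below. None of the 20 neuronal markers considered could be named in the files, and the cortical label could not be checked with them.

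*Emp1* and *Emp3* belong to the family of peripheral myelin protein 22 (PMP22), whose members sit in the plasma membrane of epithelial, endothelial and glial cells and take part in cell growth, adhesion and blebbing. *Plp2*, first described as a protein of the colonic epithelium, belongs to the MARVEL family together with the myelin protein MAL and the CMTM proteins, whose members are found in cholesterol-rich membrane and in vesicle traffic. In the brain EMP1 is known from vessels and EMP3 from glioma.

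The sequence just upstream of each gene is shown because the 3 genes were raised together, and it lets their upstream regions be compared letter by letter. The 250 bases before the start site listed by RefSeq (build GRCr8) are written in the direction of transcription, with capitals marking the motifs found. The window of *Emp1* is chr4:169943980-169944229 on the plus strand, that of *Emp3* is chr1:105528266-105528515 on the minus strand, and that of *Plp2* is chrX:17505903-17506152 on the plus strand.
Emp1: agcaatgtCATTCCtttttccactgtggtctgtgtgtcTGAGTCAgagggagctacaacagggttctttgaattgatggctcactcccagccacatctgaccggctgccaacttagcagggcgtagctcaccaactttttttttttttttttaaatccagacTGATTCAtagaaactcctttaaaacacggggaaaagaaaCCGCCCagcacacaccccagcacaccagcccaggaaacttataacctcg
Emp3: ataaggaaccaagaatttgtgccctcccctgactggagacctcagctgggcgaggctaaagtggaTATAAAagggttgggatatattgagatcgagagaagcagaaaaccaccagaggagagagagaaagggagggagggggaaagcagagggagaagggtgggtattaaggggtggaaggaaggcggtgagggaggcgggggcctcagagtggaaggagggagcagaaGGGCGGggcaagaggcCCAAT
Plp2: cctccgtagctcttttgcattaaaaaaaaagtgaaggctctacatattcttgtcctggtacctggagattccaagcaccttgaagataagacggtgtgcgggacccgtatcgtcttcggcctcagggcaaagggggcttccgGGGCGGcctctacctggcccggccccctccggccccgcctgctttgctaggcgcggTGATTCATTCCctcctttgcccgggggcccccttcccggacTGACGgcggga
The counts were made on the older build Rnor 6.0, and the listed starts of *Emp1* and *Emp3* lie inside the span RefSeq gives each gene, so that other transcripts of these genes begin further upstream.

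Both strands were searched for the letters of AP-1 (TGANTCA), the core of the cyclic AMP response element (TGACG), STAT (TTCCNGGAA), TEAD (GGAATG), SP1 (GGGCGG), the TATA box (TATAAA), the CCAAT box (CCAAT) and the E-box (CACGTG), and for NF-kB and CArG box motifs. *Emp1* held the AP-1 letters at 2 places, beginning 212 and 88 bases before the start, with TEAD letters at 242 and SP1 letters at 49. *Plp2* held AP-1 letters at 52, where they overlap TEAD letters at 47, with SP1 letters at 108 and TGACG at 11. *Emp3* had no AP-1 letters in its window, but TATAAA at 185, SP1 letters at 21 and CCAAT at 5. SP1 letters were thus shared by all 3 genes, and they stand in 30.5% of the 33465 rat promoters of this length. The AP-1 letters stand in 6.34% of those promoters, TEAD in 12.1%, TATAAA in 12.9%, TGACG in 18.2% and CCAAT in 34%. STAT (1.07% of promoters), E-box (5.59%), NF-kB (3.54%) and CArG box (1.5%) motifs were in none of the 3 windows. The share of G and C was 46.8% in *Emp1*, 56% in *Emp3* and 60.8% in *Plp2*. A match describes letters and not a bound site, and a missing match says only that these letters are not in this window.

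Expression is given as CPM, the count of a gene scaled to a common library size after normalization of the libraries by the TMM method. In sham cortex *Emp1* was steady. The 5 contralateral sham samples held 8.67, 9.84, 9.39, 8.76 and 9.42 CPM (rats 82, 84, 86, 91 and 94), with a mean of 9.22 ± 0.489 CPM (SD, n = 5). The same rats held 9.95, 10.3, 9.84, 6.53 and 11.1 CPM ipsilaterally, with a mean of 9.55 ± 1.76 CPM (SD, n = 5), and only the ipsilateral sample of rat 91 fell clearly below the others. *Emp3* lay lower, at 1.41, 3.33, 2.28, 3.43 and 2.94 CPM contralaterally and at 2.58, 2.83, 3.10, 1.98 and 3.22 CPM ipsilaterally in the same order of rats, with an ipsilateral mean of 2.74 ± 0.494 CPM (SD, n = 5). *Plp2* was the scarcest, at 1.22, 1.44, 0.966, 1.23 and 2.02 CPM contralaterally and at 1.31, 1.18, 0.722, 0.697 and 2.04 CPM ipsilaterally, with an ipsilateral mean of 1.19 ± 0.547 CPM (SD, n = 5). These last values rest on as few as 27 counts, in ipsilateral cortex of rat 86, whereas no sample held fewer than 368 counts of *Emp1*. Both hemispheres of sham rat 94 carried the highest *Plp2* of their group.

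The hemispheres of sham rats were compared to ask whether the side, or the craniectomy without a probe, moved these genes. The genes were chosen as raised over the ipsilateral sham samples, which favours low values in them, and the comparison is not free of that choice. Ipsilateral minus contralateral, the log2 difference was 0.05 (SE 0.188) for *Emp1*, 0.03 (SE 0.284) for *Emp3* and -0.21 (SE 0.354) for *Plp2*. None of the 3 genes passed edgeR's quasi-likelihood test (adjusted p = 0.99995 for each), in a comparison where 0 of 15747 genes did (0%). At an unadjusted p under 0.05 edgeR picked 47 genes (0.298%), where chance alone gives about 5%. DESeq2 and limma also called 0 genes after adjustment. The ipsilateral side was higher in 4 of 5 rats for *Emp1*, in 3 of 5 for *Emp3* and in 2 of 5 for *Plp2*, and two-sided exact permutation tests over the 32 sign flips gave p = 0.812, 0.812 and 0.25. With 5 rats such a test cannot go below 0.0625. The 95% intervals of the ratio between the hemispheres were 0.780 to 1.38 for *Emp1*, 0.666 to 1.57 for *Emp3* and 0.507 to 1.48 for *Plp2*. These intervals, the SEs and edgeR p-values above and the count of 47 genes come from a fit that does not pair the hemispheres of a rat. With the rat as a block the SE was 0.147 for *Emp1*, 0.251 for *Emp3* and 0.231 for *Plp2*, and 0 genes passed the adjusted test.

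In ipsilateral PBBI cortex each of the 3 genes stood above every sham sample. *Emp1* held 70.9 CPM in rat 81, 23.2 in rat 83, 44.5 in rat 85, 96.1 in rat 88, 67.8 in rat 90 and 45.8 in rat 96, from 1576 to 6681 counts, with a mean of 58.0 ± 25.5 CPM (SD, n = 6). The lowest of these was more than the highest ipsilateral sham value of 11.1 CPM, and the fitted log2 difference was 2.60 (SE 0.337), or 6.08-fold. This was the smallest fold and the largest absolute gain of the 3 genes. *Emp3* held 37.4, 9.71, 19.0, 22.6, 17.5 and 19.8 CPM in the same order, with a mean of 21.0 ± 9.14 CPM (SD, n = 6). Its log2 difference from ipsilateral sham was 2.94 (SE 0.333), or 7.66-fold. Rat 81 stood out at the top of *Emp3*, whereas rat 88 was at the top of *Emp1*.

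*Plp2* showed the highest fold, at 3.29 on the log2 scale (SE 0.462), or 9.79-fold, and a different spread among the injured rats. It held 15.4, 5.56, 4.22, 15.0, 15.3 and 14.6 CPM in rats 81, 83, 85, 88, 90 and 96, with a mean of 11.7 ± 5.28 CPM (SD, n = 6) and a median of 14.8 CPM. Rats 81, 88, 90 and 96 were close together near the top, and rats 83 and 85 lay apart below them. Rat 83 was the lowest injured rat for *Emp1* and *Emp3*, but rat 85 was the lowest for *Plp2*. In this contrast edgeR called 753 of 16104 genes (4.68%), 659 of them higher in PBBI (4.09%), and in 563 genes (3.5%) all 6 PBBI samples lay above all 5 sham samples. These shares are printed as background for genes that were chosen on this same contrast.

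**Figure D1:**
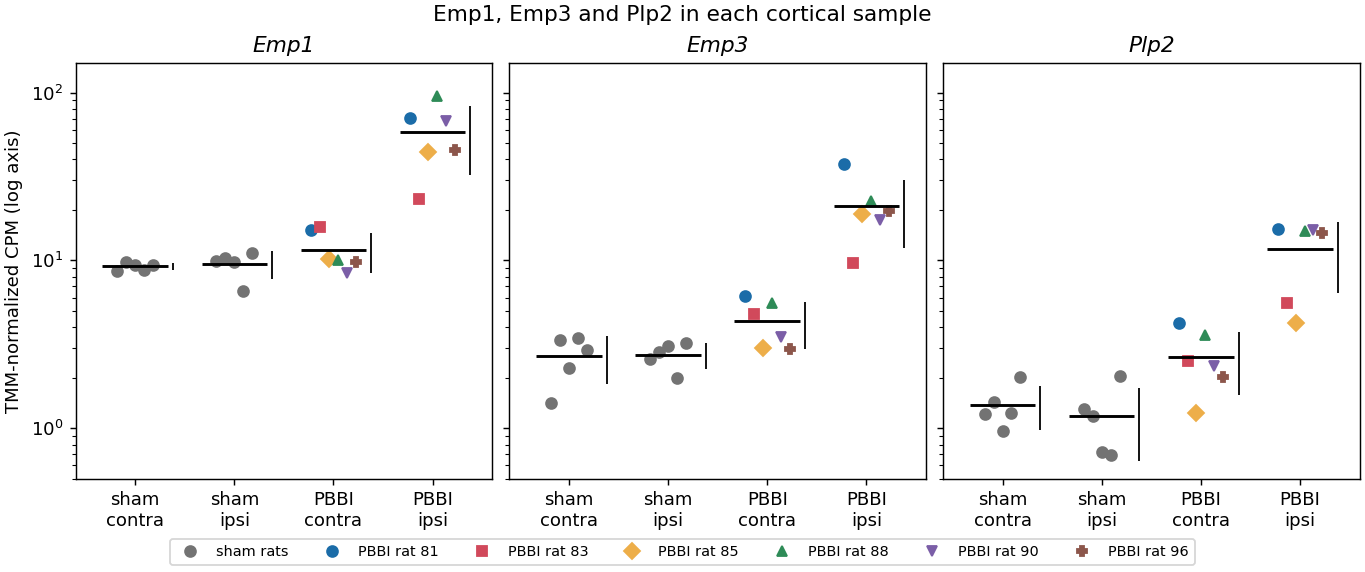
TMM-normalized CPM of Emp1, Emp3 and Plp2 (log axis) in each of the 22 cortical samples, with horizontal lines for group means and vertical lines for 1 SD to either side. Sham rats are grey and each PBBI rat has its own marker. All 6 ipsilateral PBBI samples lie above all sham samples for each gene, and contralateral PBBI samples overlap with sham.

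The ipsilateral sample of rat 85 stood apart from its group: its log2 CPM across genes correlated with the other samples of its group at a mean r of 0.835, against 0.933 to 0.974 in the remaining 21 samples. Its TMM factor was also the lowest, at 0.706, so that scaling raised its values. Without TMM this sample held 31.4 CPM of *Emp1*, 13.4 CPM of *Emp3* and 2.98 CPM of *Plp2*, each still above the highest ipsilateral sham value without TMM, which were 11.2, 3.25 and 2.05 CPM. Leaving out each ipsilateral sample in turn kept the log2 difference of *Emp1* between 2.40 and 2.77, of *Emp3* between 2.70 and 3.09 and of *Plp2* between 3.15 and 3.59.

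Within injured rats the 3 genes were compared between hemispheres. *Emp1* was 4.70 times as high ipsilaterally in rat 81, 1.46 times in rat 83, 4.35 times in rat 85, 9.56 times in rat 88, 8.03 times in rat 90 and 4.70 times in rat 96. The ratio of *Emp3* ran from 2.04 in rat 83 to 6.64 in rat 96 with a median of 5.54, and that of *Plp2* from 2.20 in rat 83 to 7.24 in rat 96 with a median of 3.90. All 6 rats were higher ipsilaterally for each gene, and rat 83 had the smallest ratio for each. The share of all genes that were higher ipsilaterally in all 6 rats was not counted. Contralateral *Emp1* of rat 83, at 15.9 CPM, was also the highest of its group. In sham rats the same ratio ran from 0.745 to 1.18 for *Emp1*, from 0.577 to 1.83 for *Emp3* and from 0.566 to 1.07 for *Plp2*.

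**Figure D2:**
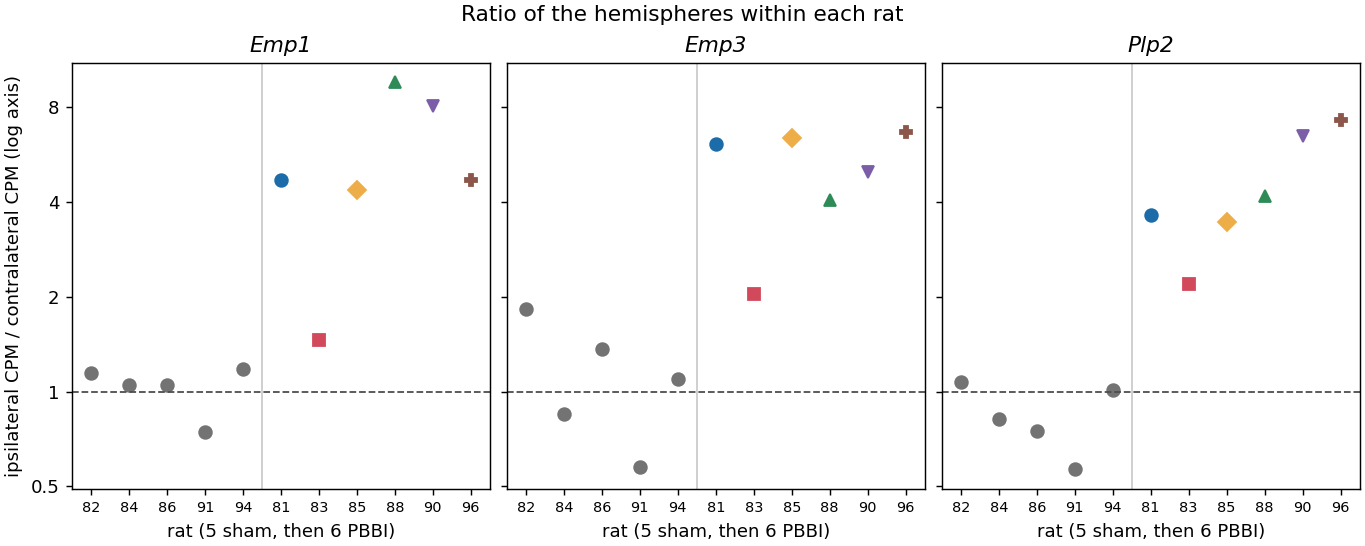
Ipsilateral CPM divided by contralateral CPM in each rat (log axis), with the 5 sham rats left and the 6 PBBI rats right of the vertical line in each panel. The dashed line marks equal hemispheres. Every PBBI rat lies above it, from 1.46 (Emp1, rat 83) to 9.56 (Emp1, rat 88), and sham rats lie to either side.

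The fitted log2 difference between the hemispheres of PBBI rats was 2.34 (SE 0.310) for *Emp1*, 2.29 (SE 0.317) for *Emp3* and 2.14 (SE 0.395) for *Plp2*, in a comparison where edgeR called 568 of 15973 genes (3.56%). This fit did not pair the hemispheres of a rat. With the rat as a block the same values were 2.26 (SE 0.333), 2.25 (SE 0.251) and 2.08 (SE 0.253), and 1646 genes were called. All 6 ipsilateral samples were above all contralateral ones for *Emp1* and *Emp3*, and 5 of 6 for *Plp2*, since rat 85 ipsilaterally (4.22 CPM) lay just under rat 81 contralaterally (4.25 CPM). Such a separation was seen in 247 genes (1.55%). The injury difference ipsilaterally minus the injury difference contralaterally was 2.28 (SE 0.372) on the log2 scale for *Emp1*, 2.25 (SE 0.421) for *Emp3* and 2.34 (SE 0.539) for *Plp2*, where edgeR called 54 of 16587 genes (0.326%). The 3 genes thus had nearly equal values here, with standard errors larger than the gaps between them. The rat was not entered in this fit either, and more genes were called with the rat as a block, as given at the end.

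**Figure D3:**
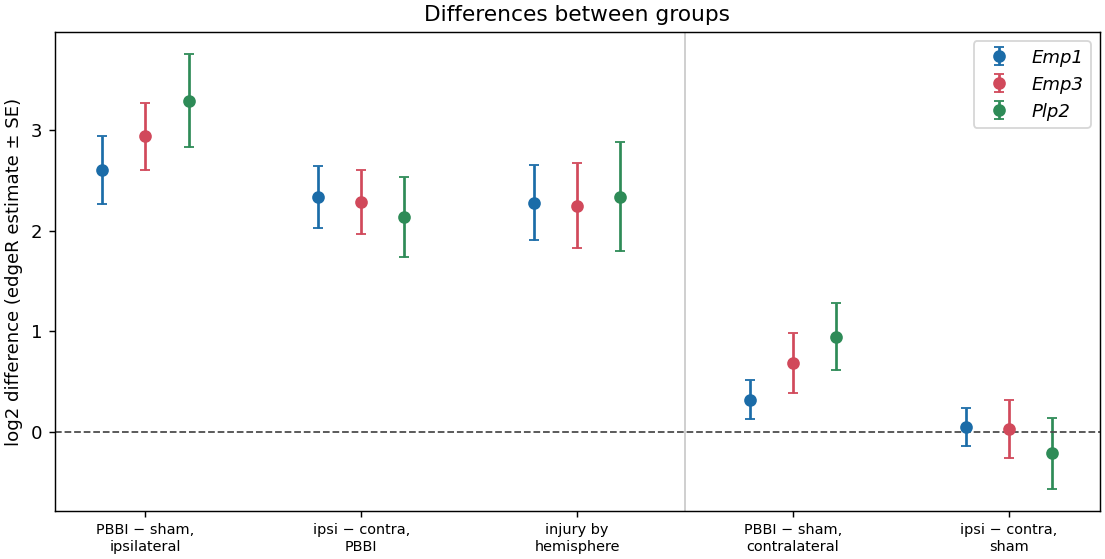
Log2 differences of Emp1, Emp3 and Plp2 between groups as fitted by edgeR, with bars for 1 standard error to either side. The comparisons left of the vertical line use the ipsilateral PBBI samples on which the genes were chosen, with values between 2.14 and 3.29, and those on the right do not, with values between -0.21 and 0.95. The sham comparison uses the ipsilateral sham samples, which were the other side of that choice.

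The contralateral hemisphere was compared to ask whether these genes also moved away from the injury. Contralateral PBBI samples held 15.1, 15.9, 10.2, 10.0, 8.44 and 9.74 CPM of *Emp1* in rats 81, 83, 85, 88, 90 and 96, with a mean of 11.6 ± 3.10 CPM (SD, n = 6). Rats 81 and 83 stood above the rest, whose values reached into the sham range of 8.67 to 9.84 CPM. *Emp1* was 1.25-fold higher than in contralateral sham (95% interval 0.937 to 1.67, log2 difference 0.32, SE 0.194), and it did not pass edgeR's test (adjusted p = 0.999988) nor an exact permutation test, two-sided and over every way to split the 11 rats (p = 0.147).

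*Emp3* held 6.13, 4.77, 2.99, 5.58, 3.52 and 2.97 CPM contralaterally in the same PBBI rats, with a mean of 4.33 ± 1.36 CPM (SD, n = 6) against 2.68 ± 0.843 CPM (SD, n = 5) in sham. Its fold was 1.61 (95% interval 1.04 to 2.50, log2 difference 0.69, SE 0.296), with adjusted p = 0.999988 in edgeR and p = 0.0498 in the exact permutation test. *Plp2* held 4.25, 2.53, 1.23, 3.59, 2.36 and 2.02 CPM, with a mean of 2.66 ± 1.09 CPM (SD, n = 6) against 1.38 ± 0.398 CPM (SD, n = 5). This 1.93-fold difference (95% interval 1.18 to 3.17, log2 0.95, SE 0.332) was the largest of the 3 genes, with adjusted p = 0.999988 in edgeR and p = 0.0281 in the exact permutation test. For each gene 4 of the 6 PBBI samples were above every sham sample. The share of all genes with such a partial separation was not counted, so this count has no background. The others lay within the sham range, except rat 90 for *Emp1*, which at 8.44 CPM was below every sham sample. Full separation was seen in 15 genes (0.0943%), none of them these 3.

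None of the 3 contralateral differences therefore passed the adjusted test, in a hemisphere where edgeR called 0 of 15907 genes (0%). At an unadjusted p under 0.05 edgeR picked 366 genes (2.3%), where chance alone gives about 5%. Of these, 204 were higher in PBBI (1.28%), among them *Emp3* and *Plp2* with edgeR unadjusted p = 0.0359 and 0.0128. DESeq2 without a prior called 3 genes after adjustment, DESeq2 with its prior 0 and limma voom with sample weights 1, none of them *Emp1*, *Emp3* or *Plp2*. The permutation p-values were not adjusted over the 6 tests run, the smallest that 6 against 5 rats allow is 0.00216, and they were read for genes picked with the ipsilateral result known. By size, 217 of the 15907 genes had a larger log2 difference than *Plp2*, 422 a larger one than *Emp3* and 1687 a larger one than *Emp1*, while the median of all genes was -0.01.

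Rats 81 and 88 carried the highest contralateral *Emp3* and *Plp2*. Without both rats, a choice made after the values were seen, the log2 difference was 0.26 (SE 0.212) for *Emp1*, 0.40 (SE 0.300) for *Emp3* and 0.56 (SE 0.311) for *Plp2*. Since these rats were picked as the highest for *Emp3* and *Plp2*, the smaller differences of these genes follow from the choice. The same contralateral samples also held the highest summed level of 5 astrocyte markers, at 5471 and 4601 CPM, against 1433 to 3271 CPM in the other 4 PBBI rats and 1518 to 2254 CPM in sham. Most of these sums was *Gfap*, the filament protein of reactive astrocytes, at 4134 and 3086 CPM. *Vim* was also above its sham range of 64.5 to 96.9 CPM, at 309 and 261 CPM, whereas *Gjb6* (42.1 and 39.3 CPM), *Aldoc* (969 and 1197 CPM) and *Aldh1l1* (16.9 and 16.6 CPM) lay within theirs. Contralateral rat 88 further held 196 CPM of 4 mural cell markers, 161 CPM of it *Tagln*, against at most 65.8 CPM in the other PBBI rats, and 39.8 CPM of the 2 epithelial and choroid plexus markers, nearly all of it *Kl*, against at most 0.636 CPM. Some leukocyte markers and the microglial marker *C1qb* were also highest in contralateral rats 81 and 88. *Itgam* was at 25.2 and 20.1 CPM against at most 10.9 CPM in the other 4 PBBI rats, and *C1qb* at 78.1 and 97.5 against at most 70.9 CPM. The other named microglial markers were not highest in both rats. *Tmem119* was at 20.3 and 32.8 CPM against 38.5 to 53.1 CPM in the other 4 PBBI rats. *Tyrobp* was at 51.1 and 54.0 CPM against 70.9 CPM in rat 85, and *C1qc* at 61.7 and 71.8 CPM against 64.8 CPM in rat 83. The sum of leukocyte markers was not highest in them either, at 225 and 197 CPM against 144 to 300 CPM. The part of these cell types in the contralateral values was not tested.

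**Figure D4:**
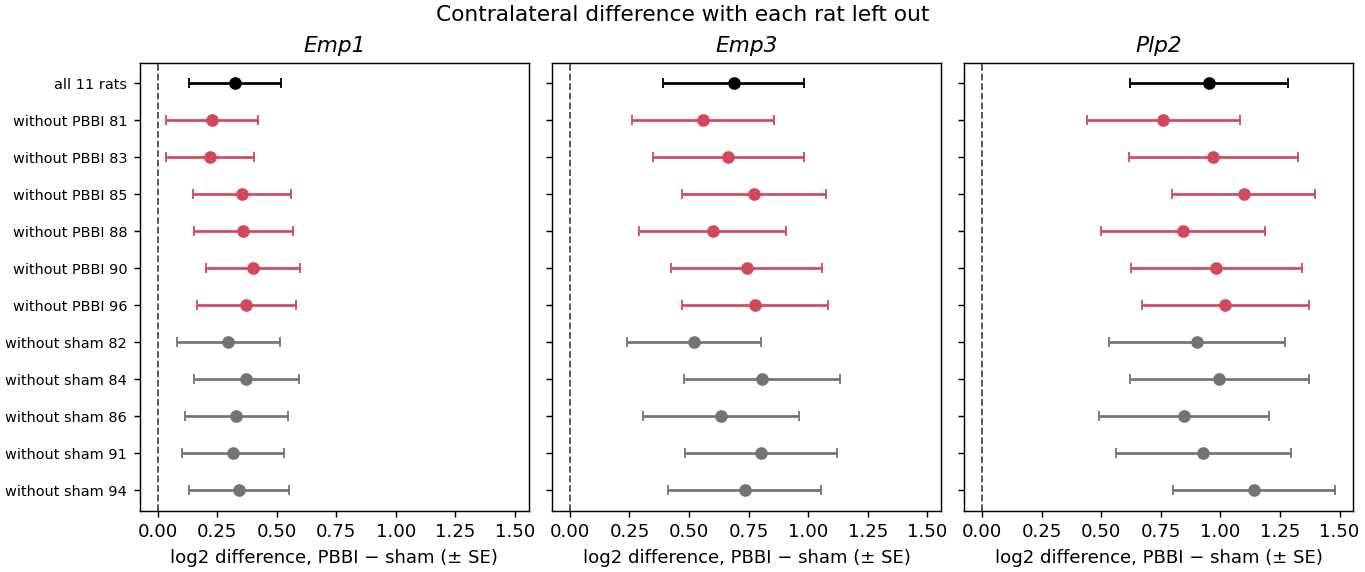
Contralateral log2 difference between PBBI and sham for Emp1, Emp3 and Plp2 with all 11 rats (black) and with each PBBI rat (red) or sham rat (grey) left out, with bars for 1 standard error to either side. Every point lies above 0, from 0.22 (Emp1 without rat 83) to 1.14 (Plp2 without sham rat 94).

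Over the 4 groups the order of mean levels was the same for *Emp1* and *Emp3*: highest in ipsilateral PBBI, then contralateral PBBI, then ipsilateral sham and contralateral sham, with the sham hemispheres closer to each other than their SD. For *Plp2* the sham hemispheres changed places, at 1.38 CPM contralaterally and 1.19 CPM ipsilaterally, a gap that was again within their SD. The step from contralateral PBBI to ipsilateral sham, its neighbour in the order of *Emp1* and *Emp3*, crosses rats and hemispheres and was not tested.

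To set the genes beside each other, CPM was divided by gene length. In ipsilateral sham *Emp3* stood at 3.76 ± 0.677 and *Emp1* at 3.40 ± 0.628 CPM per kb (SD, n = 5), so that both were about equally abundant per length, while *Plp2* was at 1.11 ± 0.513 CPM per kb. In ipsilateral PBBI the values were 28.8 ± 12.5 CPM per kb for *Emp3*, 20.7 ± 9.10 for *Emp1* and 10.9 ± 4.95 for *Plp2* (SD, n = 6). The ratio of *Emp3* to *Emp1* per length averaged 1.11 ± 0.0856 in ipsilateral sham and 1.48 ± 0.436 in ipsilateral PBBI, and it was above 1 in 4 of 5 and in 4 of 6 samples. Rats 88 and 90, in which *Emp1* was raised the most over the other hemisphere, were those below 1. *Plp2* was below both other genes in all 22 samples. Its ratio to *Emp1* averaged 0.320 ± 0.106 in ipsilateral sham and 0.549 ± 0.201 in ipsilateral PBBI.

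**Figure D5:**
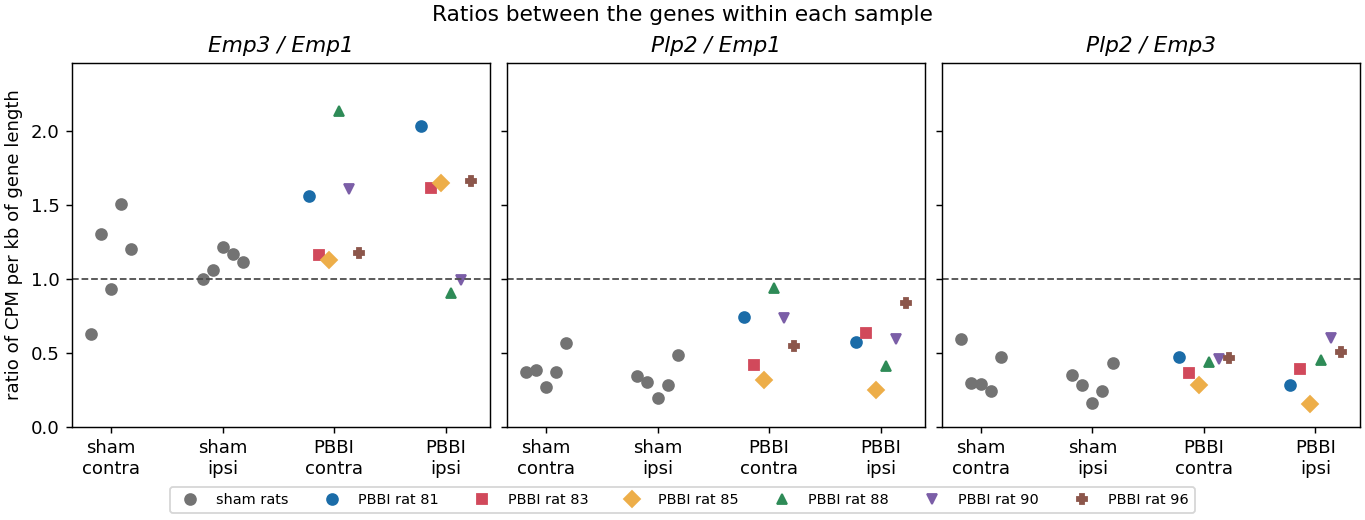
Ratios of CPM per kb of gene length between Emp3 and Emp1, Plp2 and Emp1, and Plp2 and Emp3 within each sample, by group, with the dashed line at equal levels. Plp2 lies below the line in all 22 samples, and the ratio of Emp3 to Emp1 is highest, at 2.14, in contralateral PBBI rat 88.

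The nearest relatives of the 3 genes could be followed only where a name was given, and names exist mostly for genes the authors called in these same samples. The outcome of edgeR's ipsilateral test is printed for these relatives, but it is largely fixed by that choice and supports nothing about a family, and it stands against a background of 4.68% of all genes called. Of the 8 genes of the PMP22 and EMP family 3 were named. *Pmp22*, a protein of compact peripheral myelin, was at 57.8 ± 8.48 CPM in ipsilateral PBBI (SD, n = 6) against 37.7 ± 8.03 CPM in sham (SD, n = 5), with a log2 difference of 0.62 (SE 0.192, edgeR adjusted p = 0.0973), and all 6 PBBI samples lay above sham. Contralaterally it was lower by point estimate, at -0.33 (SE 0.235, edgeR adjusted p = 0.999988).

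In the MARVEL family 9 of 27 genes were named. Of the 8 besides *Plp2*, 3 rose and 2 fell past the threshold ipsilaterally, with a median log2 difference of 0.84, against -0.02 over all genes tested. The MAL relative *Mall* (log2 difference 1.65), *Cmtm6*, which holds PD-L1 at the cell surface (0.91), and *Sypl2*, a synaptophysin relative of muscle triads (2.27), rose. *Mal*, a protein of compact myelin, fell by 1.39 on the log2 scale, and *Synpr*, a synaptic vesicle protein, fell by 1.04. *Cmtm3* (1.02), *Cmtm7* (0.77) and *Myadml2* (-1.29) did not pass the test. Contralaterally no named gene of the family passed it, the median of these 8 was -0.04, and *Plp2* had the highest log2 difference of the 9.

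Among other families of proteins with 4 helices in the membrane, 4 of 25 claudins, the strand proteins of tight junctions, were named and 3 were tested ipsilaterally. *Cldn10* fell by 1.94 on the log2 scale, and *Cldn14* (3.05) and *Cldn15* (-0.83) did not pass. Of 42 tetraspanins 2 were named: the lysosome and exosome protein *Cd63* rose by 2.14, and *Cd82* was at 0.72 without passing. *Tm4sf1*, a surface protein of endothelium, was at 0.91 without passing, and of the 17 MS4A genes, a family of immune cells, the 3 that were named (*Ms4a6a*, *Ms4a6c* and *Ms4a12*) rose, by 2.19, 2.40 and 4.06, where 4.09% of all genes were called higher. Of 16 genes whose proteins are reported as partners of these genes 3 were named and 2 tested: *Cd44*, the hyaluronan receptor, rose by 3.59 and the chemokine receptor *Ccr1* by 3.26. None of the named members of these lists passed the adjusted test contralaterally.

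Each of the 3 genes was then matched with the genes whose levels followed it most closely over the 22 samples, by the root mean square difference of centred log2 CPM among 16586 other genes. Nearest to *Emp1* were *Tagln2* (an actin-binding protein, 0.351), *Adm* (adrenomedullin, 0.370), *Procr* (the endothelial protein C receptor, 0.384), *Emp3* (0.401) and *Angpt2* (angiopoietin 2, 0.408), where the median gene was at 1.30. For *Emp3* the 4 nearest were *Fgl2* (a fibrinogen-like protein, 0.370), *Vim* (vimentin, 0.385), *Tagln2* (0.387) and *Emp1* (0.401), with the median gene at 1.42. *Emp1* and *Emp3* were thus each in the fourth place from the other. *Plp2* stood further off, at rank 89 from *Emp1* (0.584) and rank 28 from *Emp3* (0.523). Counted from *Plp2*, *Emp3* was at rank 15 and *Emp1* at rank 31. Its own neighbours were *Lsp1* (an actin-binding protein of leukocytes, 0.343), *Msn* (moesin, 0.380), *Cd44* (0.431), *Cnn2* (calponin 2, 0.432) and *Pdpn* (podoplanin, 0.444), with the median gene at 1.53. All samples share the split between injured and other cortex, and these distances describe that pattern with no test.

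Levels of cell type markers are given for the same samples, but names exist mostly for genes the authors called in them. That the named markers differ ipsilaterally is largely fixed by that choice. Named were 5 of 13 astrocyte, 4 of 9 mural, 3 of 19 endothelial, 4 of 11 microglial and 2 of 17 oligodendrocyte markers. The same held for 2 of 14 fibroblast and meningeal and 2 of 16 epithelial and choroid plexus markers. Of 28 leukocyte markers 21 were named, and their summed level ran from 287 to 1383 CPM in ipsilateral PBBI, from 115 to 253 CPM in ipsilateral sham, from 144 to 300 CPM in contralateral PBBI and from 133 to 211 CPM in contralateral sham. The order of the injured rats by this sum was not that of the 3 genes: rat 83, with the lowest sum, had the lowest *Emp1* and *Emp3*, and rat 81, with the highest, had the highest *Emp3* and *Plp2*, but rat 85 had the lowest *Plp2* at a sum of 704 CPM, rat 88 the highest *Emp1* at 694 CPM, and rat 90 was near the top of *Plp2* at 530 CPM. The largest part of this sum was *Lyz2*, at 408 CPM in rat 85, and single markers ordered the rats differently. Rat 85 was the lowest injured rat for *Itgam* (7.27 CPM) and *Msr1* (4.77 CPM), but the highest for *S100a8* (85.5 CPM) and *Cd3d* (1.13 CPM). Among the defining markers, *Elane* had no count in 5 of 5 ipsilateral sham samples and in 1 of 6 ipsilateral PBBI samples, and *Ccr2* in 3 and 1 of them. The sum of 5 astrocyte markers ran from 2750 to 7893 CPM in ipsilateral PBBI and from 1247 to 2241 CPM in ipsilateral sham, but its members went both ways. *Gfap* (1815 to 6830 against 341 to 891 CPM) and *Vim* (248 to 716 against 48.2 to 90.7 CPM) were higher in PBBI, and *Aldoc* (410 to 624 against 760 to 1204 CPM), *Aldh1l1* (5.08 to 8.83 against 10.4 to 19.1 CPM) and most samples of *Gjb6* (4.13 to 45.1 against 34.5 to 61.0 CPM) were lower. Of the 5, edgeR called 2 higher and 2 lower, where 4.68% of all genes were called and 4.09% were called higher. It called 11 of 17 tested leukocyte, 2 of 3 endothelial and 2 of 4 microglial markers higher, and 1 of 2 oligodendrocyte markers lower. The sum of 4 mural markers ran from 97.7 to 391 CPM in ipsilateral PBBI and from 41.5 to 83.8 CPM in sham, carried by *Tagln* (73.1 to 359 against 13.7 to 50.6 CPM), while the pericyte marker *Rgs5* was at 4.56 to 19.6 against 15.0 to 31.0 CPM, and 1 of the 4 was called. That of 3 endothelial markers ran from 128 to 292 CPM and from 81.0 to 109 CPM. For 4 microglial markers it ran from 297 to 814 CPM and from 105 to 231 CPM, with the highest value in rat 85, although *Tmem119*, a marker of resting microglia, was at 10.4 to 27.6 against 26.3 to 41.6 CPM. Sums of 2 oligodendrocyte markers went the other way, from 135 to 410 CPM in ipsilateral PBBI and from 391 to 812 CPM in sham. The fibroblast and meningeal markers were split, with *Fn1* at 58.2 to 356 against 20.4 to 31.3 CPM and *Igf2* at 9.94 to 37.8 against 28.6 to 96.0 CPM. The epithelial marker *Krt14* was at 0 to 1.82 against 0 to 0.0329 CPM, and *Kl* of choroid plexus at 0.125 to 0.460 against 0.114 to 0.395 CPM. In each of these 2 lists 1 of 2 markers was called higher, where 4.09% of all genes were. The part of each of these cell types in the level of *Emp1*, *Emp3* and *Plp2* was not tested.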

How the data were processed

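The authors deposited raw counts per gene, with no normalization, for 22 cortical samples profiled by RNA-seq. Per the labels, the authors aligned the reads with STAR 2.4.2a to Rnor 6.0 and counted them with featureCounts 1.4.3-p1. How strand and reads with several alignments were handled is not given in the sources used here. Samples were grouped by the labelled treatment and hemisphere. The titles of both samples of rat 81 and of the contralateral sample of rat 82 carry the letters PFC, and all other titles carry CC or CI. Rat 81 held the highest contralateral *Emp3* and *Plp2*, and rat 82 the largest sham ratio of *Emp3* between hemispheres (1.83). Whether these titles mark another region or dissection is not given in the sources used here and was not tested. Nothing states that libraries were pooled. Of 23572 identifiers with counts, 1822 were named from supplementary gene lists of the study, whose fold changes and p-values were not used. Rats had surgery in weekly groups, and the week was not entered as a batch.

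PBBI and sham were compared in each hemisphere, and hemispheres within each treatment, by the quasi-likelihood test of edgeR 4.0.16 (R 4.3.3, TMM, filterByExpr) with Benjamini-Hochberg adjustment over all genes tested and a threshold of 0.05. Exact permutation tests used log2 CPM with a prior count of 2. Other settings tried were DESeq2 1.42.0 (without a prior on fold changes and with it), RLE factors, no filter, 10 or more counts in each sample, voom with sample weights (limma 3.58.1), all samples in the same fit, the rat as a block, and leaving out each sample. Tests were also tried on simulated counts, drawn for each sample with no effect of the rat, and the outcome is not used here. Samples of the same rat come from its 2 hemispheres, as the animal number in the labels gives it, and their deviations from group means correlated at 0.246 to 0.758 in the 11 rats. The 95% intervals are from the fitted model, and the counts have no molecular identifiers.

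The members and lists were chosen with earlier results of these data known. Named are the 3 genes, every tested and named gene of the family lists, and for each of the 3 the 5 named genes nearest in pattern, of which 1 for *Emp3* is not reported here. Marker genes are named only as examples of a list. Protein sequences were not used here.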

Additional observations from a re-analysis of the deposited data

Results flagged for a closer look

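Of the 12 sets of values formed by 3 genes and 4 groups, 1 held a sample far from the others. In ipsilateral sham cortex rat 91 held 6.53 CPM of *Emp1*, where the other 4 sham rats held between 9.84 and 11.1 CPM, and its gap to the nearest of them took a share of 0.72 of the group's range against a critical value of 0.71. Chance gives such a gap in about 5% of groups. Without that sample the sham difference of *Emp1* between hemispheres was 0.17 on the log2 scale.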

How the results depend on the processing

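The ipsilateral values and those within PBBI rats kept their sign under every setting run, with log2 differences from sham of 2.38 to 2.76 for *Emp1*, 2.70 to 2.96 for *Emp3* and 2.85 to 3.55 for *Plp2* over 7 settings. Contralaterally these 7 settings gave 0.16 to 0.34, 0.41 to 0.71 and 0.52 to 0.97, and leaving out each sample gave 0.22 to 0.40, 0.52 to 0.81 and 0.76 to 1.14. No setting brought a contralateral adjusted p to 0.05, and the lowest was 0.231 (*Plp2*, limma voom with sample weights). In sham rats, where the difference was near 0, leaving out each sample gave -0.0066 to 0.17 for *Emp1*, -0.13 to 0.15 for *Emp3* and -0.49 to -0.03 for *Plp2*, and the sign turned for *Emp1* without ipsilateral rat 94 and for *Emp3* in 4 of 10 fits. In fits paired by animal, with the replicate block, the sham values were 0.03, 0.08 and -0.27, and for injury by hemisphere they were 2.22, 2.16 and 2.34. The block moved counts over all genes from 568 to 1646 within PBBI rats and from 54 to 708 for injury by hemisphere. Ipsilaterally the 753 genes became 1639 with DESeq2 without a prior, 1628 with it, 5014 with limma voom and 1655 when all 22 samples were fitted together, and 316 to 2186 with a sample left out (the most without ipsilateral rat 85). Within PBBI rats the 568 became 1535, 1531, 3695 and 1354 under the same settings, and 82 to 1545 with a sample left out. For injury by hemisphere the 54 became 353 with DESeq2 and 1663 with limma voom, and 4 to 336 with a sample left out. Contralaterally, DESeq2 without a prior called 3 genes, limma voom 1 and leaving out contralateral rat 96 1, in place of 0. With the 11 ipsilateral samples in place of 22 the genes nearest in pattern changed, to *Tagln2*, *Trim47*, *Adm*, *Vim* and *Anxa2* for *Emp1*, *Cdt1*, *Vim*, *Tagln2*, *Emp1* and *Capg* for *Emp3*, and *Mcm3*, *Lsp1*, *Cd44*, *Mcm10* and *Pdpn* for *Plp2*. The causes of these shifts were not tested.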
